A study of Nannospalax ehrenbergi and Mus musculus with 25 samples.

Results

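The 10 genes described here are markers of macrophages and of lipid-associated macrophages, measured by RNA-seq in muscle and 3MCA-induced tumors of the blind mole rat Spalax and of mice. They were chosen by their role as markers, with earlier results of these libraries known: Cd68, Csf1r and Adgre1 for macrophages in general, Mrc1 and Cd163 for scavenging tissue macrophages, Arg1 for alternative activation, and Apoe, Apoc1, Trem2 and Gpnmb for lipid-associated macrophages. The mouse table holds all 10 among its 47593 listed genes. The Spalax table, with 27988 listed genes, holds 9 under these symbols and Adgre1 under its older symbol Emr1. All 25 libraries were used, 16 from Spalax and 9 from mouse.

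Macrophages take up and digest dying cells, matrix fragments and lipid. The receptor encoded by Csf1r keeps them alive in response to the ligands CSF1 and IL34. Macrophages that load lipid, for instance in fat tissue, atherosclerotic vessels and tumors, are known to carry the lipid receptor TREM2, the apolipoproteins APOE and APOC1 and the lysosome-associated glycoprotein GPNMB. Tissue-resident macrophages of muscle and fat are known for CD163, a receptor for haemoglobin bound to haptoglobin, and for the mannose receptor MRC1. Arginase 1 splits arginine into ornithine and urea and competes for the substrate of nitric oxide synthase.

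Each treated animal had received a single subcutaneous injection of 3-methylcholanthrene (3MCA), a carcinogen that induces sarcomas, into the left flank of the neck. Spalax was caught in the field, so their ages are not exactly known, and mice were young C57BL/6 males. The groups comprised 4 untreated control Spalax, 4 injected Spalax without a tumor (tolerant, 2251 and 2261 at 18 months, 2218 and 2375 at 30 months), 2 Spalax with a granuloma (600 at 14 months, 976 at 16 months), 2 with a fibrosarcoma (2240 at 18 months, 2230 at 30 months), 3 untreated control mice and 3 mice with a fibrosarcoma (1019 at 14 weeks, 1023 at 12 weeks, 512 at 11 weeks). Tumor-bearing animals gave a library of the injected side (IS), that is the tumor, and a library of neck muscle of the uninjected side (UIS). The study's list of animals places tolerant libraries on the injected side and control libraries on the uninjected side. Yet the titles of the tolerant libraries end in H, as do those of UIS and control libraries. Elsewhere the paper calls its tumor-negative Spalax samples uninjected, so the side of the tolerant libraries is not certain. The study's pathology described the granulomas as fibrosis with growth of spindle cells, and they are benign. Control Spalax were all female, tolerant Spalax were 3 males and 1 female, and among the tumor-bearing Spalax only 2230 was male.

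Depth was 17025447 to 23386729 reads per Spalax library and 22143060 to 31179183 per mouse library. Values are read counts divided by 1 size factor per library, so a value of 10 rests on 13.8 to 19.3 reads in tumors and on 6.95 to 14.1 reads elsewhere. By the read names, control and tolerant libraries carry a dual index and all libraries of tumor-bearing animals a single index, so index type and tumor status cannot be told apart between these groups. The read name of granuloma UIS 976 holds the number 979, and of the 12 Spalax muscle libraries only tolerant 2251 had a lower sum of skeletal muscle genes (863771) than this library (871429). The summed level of 9 of 12 listed skeletal muscle genes was 863771 to 3207655 in the 12 Spalax muscle libraries and 704 to 6366 in the 4 Spalax tumors. Of the 12 muscle genes listed, all were in the mouse table, where the sum was 1261473 to 4627174 in muscle and 218 to 72365 in tumors. In bulk tissue, more cells of a type and more RNA per cell cannot be told apart.

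In muscle of control Spalax the spread between animals differed from gene to gene. Mean values were 109 ± 34.7 for Cd68, 799 ± 271 for Csf1r, 14.9 ± 12.1 for Adgre1 and 891 ± 296 for Mrc1 (SD, n = 4). Cd163 was 85.1 ± 15.7 (SD, n = 4). Apoe was 1318 ± 534 and Gpnmb 436 ± 141, whereas Trem2 (2.95 ± 1.73), Arg1 (1.64 ± 1.92) and Apoc1 (9.70 ± 9.77) were close to the level of single reads (SD, n = 4). In control mice Cd68 was 163 ± 17.7, Csf1r 860 ± 308, Mrc1 723 ± 275 and Gpnmb 159 ± 107 (SD, n = 3). Adgre1 (273 ± 134), Cd163 (891 ± 448), Apoe (9482 ± 3411) and Apoc1 (3077 ± 1268) stood far above their values in the Spalax table, and Trem2 was 14.7 ± 7.63 and Arg1 8.84 ± 8.31 (SD, n = 3). The values of the species come from separately normalised tables with different gene models, so the levels are set side by side without a test.

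**Figure D1:**
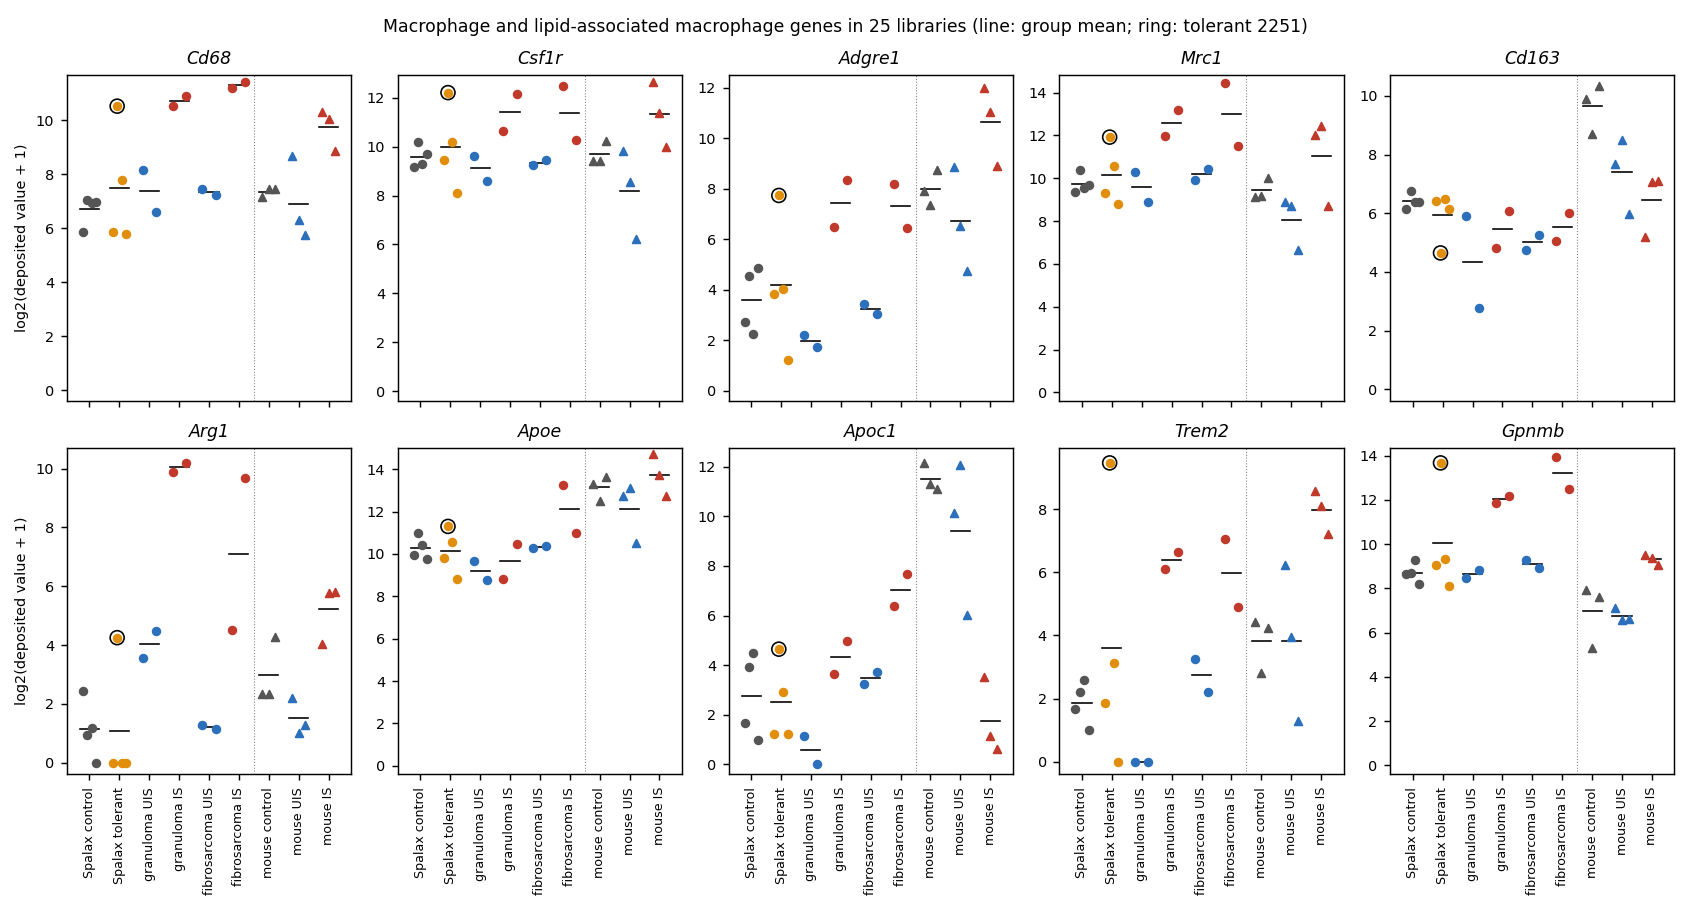
Each panel shows 1 gene, with log2(deposited value + 1) on the vertical axis and the 9 groups on the horizontal axis. Circles are Spalax libraries, triangles are mouse libraries, horizontal lines are group means on this scale and the ring marks tolerant 2251. Tumor libraries lie above UIS muscle in most panels, tolerant 2251 lies among or above the tumors for Csf1r, Trem2 and Gpnmb, Cd163 shows no such order, and mouse tumors are at 10.3 or less for Apoc1.

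Injected and uninjected sides were compared within each tumor type to ask which of the genes differ between a tumor and muscle of the same animals. The test was limma on log2(value + 1) with p-values adjusted over all genes tested, and genes with an adjusted p of at most 0.05 are called. All 10 genes passed the filter on low values in each of these comparisons, some because of the tumor libraries: a gene needed a value of 10 in 2 libraries in Spalax and in 3 in the mouse. Muscle alone would not have passed Adgre1, Cd163, Apoc1 and Trem2 in the granulomas, Adgre1, Arg1, Apoc1 and Trem2 in the Spalax fibrosarcomas, and Arg1 and Trem2 in the mouse. A gene admitted by the group where it is high had to differ, so fold changes of such genes are given as a description without a p-value, as are those of Apoc1 in the fibrosarcomas, which was chosen with its difference known. Of the 6 granuloma genes that either side alone would have passed, 4 were called (Cd68, Mrc1, Arg1 and Gpnmb), all higher on the injected side, where 11.7% of the 14735 genes tested were called higher and 12.6% lower. Of the 6 such genes in the Spalax fibrosarcomas 2 were called (Cd68 and Gpnmb), both higher, against 17.4% higher and 19% lower among 14696 genes. Of the 7 such genes in the mouse 4 were called (Cd68, Csf1r, Adgre1 and Gpnmb), all higher, against 22.8% higher and 22.3% lower among 15220 genes. Over all 10 genes the fits called 7, 4 and 7, and nothing is read from these totals. Which genes are called, and the share called higher, depends on the scaling. When values were scaled to total reads the median of all genes moved by 0.73, 0.80 and 1.06 on the log2 scale in the 3 comparisons, and the share of calls that were higher went from 48.0% to 75.0%, from 47.8% to 75.7% and from 50.5% to 81.9%.

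Separation of the libraries can be described without a model, for all 10 genes including those admitted by the tumors. Both granuloma IS libraries lay above both UIS libraries for 8 of the 10 genes, as they did for 35% of all genes tested. For the Spalax fibrosarcomas this held for 9 of the 10 genes and for 37.9% of all genes, and for the mouse, with 3 libraries against 3, for 6 of the 10 genes and for 31.1% of all genes. The exceptions in Spalax were Cd163 in both tumor types and Apoe in the granulomas. Those in the mouse were Mrc1, Cd163 and Apoe, which overlapped, and Apoc1, for which every tumor lay below every UIS library.

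Cd68, a lysosomal glycoprotein used as a general macrophage marker, was higher in every tumor than in UIS muscle. It was 1469 and 1898 in granulomas 600 and 976 and 282 and 96.6 in their uninjected sides. In fibrosarcomas 2230 and 2240 it was 2340 and 2736, and 176 and 150 on the uninjected side. The 4 Spalax tumors were thus within 2-fold of each other for this gene, and the log2 fold changes were 3.33 ± 0.59 (SE, adjusted p by limma = 0.0194) and 3.95 ± 0.25 (SE, adjusted p by limma = 0.00251). Mouse tumors had 1274, 1071 and 467 in animals 1019, 1023 and 512, against 411, 77.3 and 53.3 on the uninjected side, a log2 fold change of 2.84 ± 0.82 (SE, adjusted p by limma = 0.0303).

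Csf1r, the receptor for CSF1 and IL34, was more uneven among the tumors. Its values were 1600 and 4608 in granulomas 600 and 976 (UIS 796 and 387) and 5747 and 1249 in fibrosarcomas 2230 and 2240 (UIS 613 and 696). The pairs do not overlap, yet neither tumor type passed the test, with log2 fold changes of 2.29 ± 0.64 (SE, adjusted p by limma = 0.0552) and 2.03 ± 0.76 (SE, adjusted p by limma = 0.102). In the mouse, tumors 1019, 1023 and 512 had 6353, 2633 and 1003 and their uninjected sides 903, 381 and 73.4. Each mouse tumor lay above all 3 UIS libraries, tumor 512 by little, and the log2 fold change was 3.12 ± 1.04 (SE, adjusted p by limma = 0.0478). Mouse Csf1r shares 15.1% of its exon bases with Hmgxb3 on the other strand in the GENCODE vM21 annotation, and the strand setting of the counting is not given in the sources used here.

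Adgre1 encodes the adhesion receptor known as F4/80. It was nearly unread in UIS muscle of Spalax, at 3.62 and 2.36 beside the granulomas and 9.95 and 7.27 beside the fibrosarcomas, and was 89.3 and 327 in granulomas 600 and 976 and 292 and 86.7 in fibrosarcomas 2230 and 2240. The tumors fell into a pair near 300 and a pair near 90, 1 of each type in either pair. The log2 fold changes were 5.45 ± 0.91 (SE) in the granulomas and 4.07 ± 0.75 (SE) in the fibrosarcomas. Mouse Adgre1 was 4040, 2100 and 471 in tumors 1019, 1023 and 512 and 461, 91.8 and 25.9 on their uninjected sides, so that tumor 512 and the uninjected side of 1019 nearly met. The log2 fold change was 3.92 ± 1.19 (SE, adjusted p by limma = 0.0359).

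Mrc1, the mannose receptor, differed between the Spalax fibrosarcomas, with 22442 in 2230 and 2941 in 2240 (UIS 967 and 1399). Granulomas 600 and 976 had 4048 and 9319 (UIS 1261 and 477), a log2 fold change of 2.98 ± 0.64 (SE, adjusted p by limma = 0.0296). In the fibrosarcomas both tumors lay above both UIS libraries and the gene did not pass the test, at 2.80 ± 1.01 (SE, adjusted p by limma = 0.0937). In the mouse the values were 4095, 5526 and 418 in tumors 1019, 1023 and 512 and 474, 410 and 97.9 on the uninjected side. Tumor 512 lay below the uninjected side of 1019, and the log2 fold change of 2.98 ± 1.09 (SE) had an adjusted p of 0.0639 in limma. With the animal as a block, which pairs the sides of each mouse, that adjusted p was 0.00977.

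Cd163, the haemoglobin scavenger receptor, was not called between the sides of any tumor type, nor in any other comparison. It was 26.9 and 67.1 in granulomas 600 and 976 (UIS 59.1 and 5.89) and 32.4 and 63.9 in fibrosarcomas 2230 and 2240 (UIS 25.6 and 37.6). Tumors and UIS libraries overlapped in both types, with log2 fold changes of 1.10 ± 1.24 (SE) and 0.54 ± 0.58 (SE). Without granuloma UIS 976, the granuloma value became -0.46. In the mouse the tumors had 35.1, 133 and 137 and the uninjected sides 206, 364 and 61.9 (1019, 1023 and 512), a log2 fold change of -0.94 ± 0.83 (SE, adjusted p by limma = 0.384) that was 0.12 when values were scaled to total reads.

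In both species Cd163 was higher in untreated muscle than in UIS muscle. Control mice had 953, 415 and 1303 (M1, M2 and M5), above all 3 UIS and all 3 tumor libraries. Control Spalax had 69.6, 107, 82.3 and 81.6 (1042, 1075, 2095 and 6038), above the 4 UIS libraries of tumor-bearing animals. In the mouse Mrc1 (556 to 1040 in controls, 97.9 to 474 in UIS) and Arg1, which was near the floor, were separated in the same way. The share of all genes so separated was not counted, so nothing is read from these orders. Control and UIS muscle were compared to ask whether muscle away from the tumor differs from untreated muscle. The log2 difference of UIS from control was -1.74 ± 0.60 (SE) in Spalax and -2.26 ± 0.69 (SE) in the mouse, and neither passed limma's adjustment over all genes (adjusted p = 0.232 and 0.441). Single and dual index libraries cannot be told apart from UIS and control here.

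None of the 10 genes was called between UIS and control muscle in either species, and 0% of all genes were called by limma (0 of 13909 in Spalax and 0 of 14792 in the mouse). Without adjustment, 2315 genes in Spalax and 1621 in the mouse had a p under 0.05, and Cd163 was the only one of the 10 in either. DESeq2 called 516 and 342 genes in these comparisons and edgeR 0 and 0, with none of the 10 among them. In Spalax 6 of the 10 genes passed the filter for this comparison, and Adgre1, Arg1, Apoc1 and Trem2 were too low. In the mouse 9 passed, and Arg1 was too low.

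Arg1, arginase 1, had the widest range of the 10 genes over the 4 Spalax tumors. It was 951 and 1170 in granulomas 600 and 976, 816 in fibrosarcoma 2240 and only 21.6 in fibrosarcoma 2230. On the uninjected side it was 10.9 and 21.2 beside the granulomas and 1.42 and 1.21 beside the fibrosarcomas, and in the 8 control and tolerant libraries it ranged from 0 to 18.0. Tumor 2230 thus lay only just above the highest muscle value (21.2), though well above its own uninjected side (1.42). Its Csf1r and Mrc1 values were the highest of the 4 tumors. The log2 fold change in the granulomas was 6.02 ± 0.58 (SE, adjusted p by limma = 0.00658). In the fibrosarcomas it was 5.87 ± 1.79 (SE). The summed reads of the fibrosarcomas were 1363 in the tumors and 2 on the uninjected sides, a ratio of 316 per unit of depth with an exact 95% counting interval of 87.4 to 2613. Of the tumor reads 1327 came from 2240 and 36 from 2230, so the ratio rests mainly on 2240.

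Mouse tumors had far smaller Arg1 values, 15.5, 54.0 and 54.7 in 1019, 1023 and 512, against 3.63, 1.03 and 1.44 on the uninjected side and 4.07, 4.02 and 18.4 in control muscle. The tumors lay above the UIS libraries, by a log2 fold change of 3.70 ± 0.67 (SE), and tumor 1019 lay below control M5. The difference between the responses of the Spalax fibrosarcomas and the mouse fibrosarcomas was not called for Arg1 (2.17 ± 1.86, SE, on the log2 scale; limma, adjusted p = 0.537).

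Apoe, the apolipoprotein E that macrophages release to carry cholesterol away, did not pass the test between the sides of any tumor type. In Spalax it was 457 and 1413 in granulomas 600 and 976 (UIS 803 and 437) and 9741 and 2043 in fibrosarcomas 2230 and 2240 (UIS 1255 and 1304). The fibrosarcomas lay above all 12 muscle libraries but for tolerant 2251 (2517) and control 1075 (2054), which exceeded 2240, and the granulomas lay within the range of muscle. The log2 fold changes were 0.44 ± 0.65 (SE, adjusted p by limma = 0.647) and 1.80 ± 0.78 (SE, adjusted p by limma = 0.137). Without granuloma IS 976 the first of these was -0.37. In the mouse Apoe was 26661, 13512 and 6708 in tumors 1019, 1023 and 512 and 6715, 8984 and 1450 on their uninjected sides. Each tumor exceeded its own uninjected side, the groups overlapped, and the log2 fold change of 1.60 ± 0.81 (SE) had an adjusted p of 0.149 in limma and of 0.0377 with the animal as a block.

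Trem2, the lipid receptor whose signal runs through the adaptor Tyrobp, had no read in either granuloma UIS library and values of 68.2 and 99.7 in granulomas 600 and 976. With 259 reads in the tumors and 0 outside, the tumors were at least 23.5-fold higher, taking 3 reads per library as the floor. The fitted value was 6.38 ± 0.80 (SE), which depends on the added constant of 1. In fibrosarcomas 2230 and 2240 Trem2 was 131 and 28.9 against 8.53 and 3.64, a log2 fold change of 3.24 ± 0.93 (SE). Mouse tumors had 382, 272 and 147 in 1019, 1023 and 512 and uninjected sides 73.8, 14.4 and 1.44, so every tumor lay above every UIS library. The log2 fold change was 4.14 ± 1.21 (SE).

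Gpnmb, a transmembrane glycoprotein of lysosome-rich macrophages that is also made by melanocytes and osteoclasts, rose in all 3 tumor types and with small errors. It was 3722 and 4652 in granulomas 600 and 976 (UIS 359 and 462) and 15470 and 5840 in fibrosarcomas 2230 and 2240 (UIS 628 and 480). Tumors and muscle were far apart, with log2 fold changes of 3.35 ± 0.34 (SE, adjusted p by limma = 0.00696) and 4.11 ± 0.53 (SE, adjusted p by limma = 0.00869). In the mouse it was 729, 667 and 533 in tumors 1019, 1023 and 512 and 139, 94.9 and 96.5 on the uninjected side, 2.55 ± 0.30 on the log2 scale (SE, adjusted p by limma = 0.00236). The response was larger in the Spalax fibrosarcomas than in the mouse by 1.57 ± 0.58 (SE) on the log2 scale and did not pass the adjustment (limma, adjusted p = 0.149). Of the 6 melanocyte markers listed, Tyr was 0 in all 16 Spalax libraries and Mlana 0 in the 7 tumors of both species. In tolerant 2251, where Gpnmb was 13050, Mlana was the highest of the 16 Spalax libraries, the only melanocyte marker to be so. The summed level of the melanocyte list was 17.4 to 63.0 in the Spalax tumors and 37.4 to 357 in Spalax muscle. In the mouse it was 15.5 to 35.8 in tumors and 55.7 to 160 in muscle. No list of osteoclast markers was read. The part of melanocytes or osteoclasts in the Gpnmb values was not tested.

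**Figure D2:**
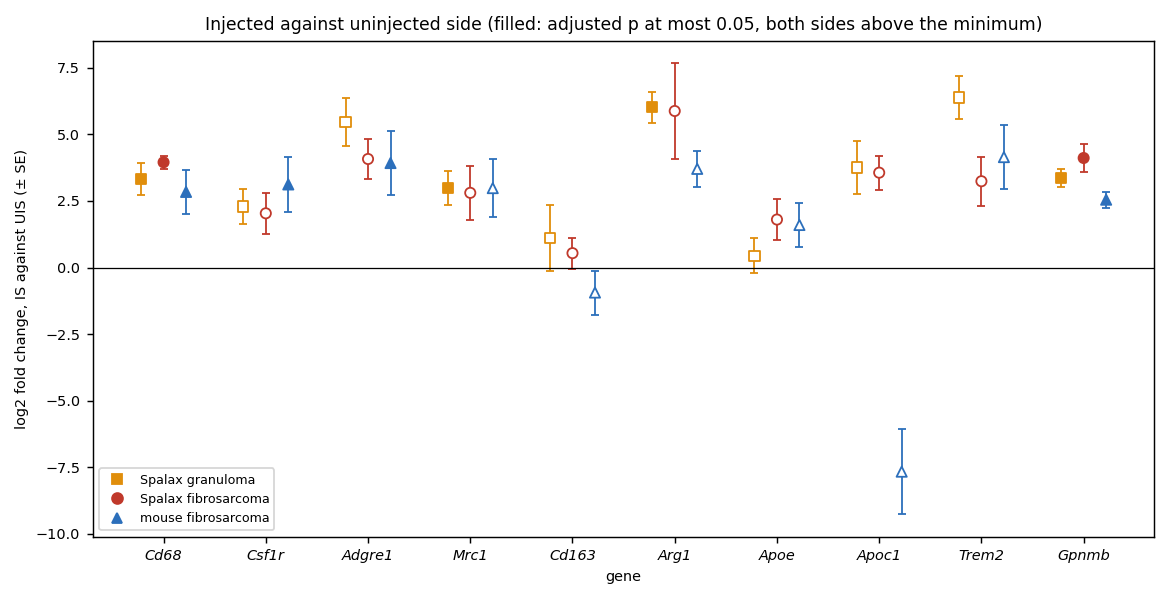
The vertical axis gives the log2 fold change of the injected against the uninjected side (limma on log2(value + 1), bars are ± 1 SE) for each of the 10 genes on the horizontal axis. Squares stand for the Spalax granulomas (2 against 2 libraries), circles for the Spalax fibrosarcomas (2 against 2) and triangles for the mouse fibrosarcomas (3 against 3), and symbols are filled where the adjusted p was at most 0.05 and either side alone would have passed the filter. Apoc1 is shown unfilled throughout. Cd68 and Gpnmb are filled and above 0 in all 3 comparisons.

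Apoc1, a small apolipoprotein of lipid-loaded macrophages, hepatocytes and fat cells, went in opposite directions in the 2 species. It was among the genes chosen because it had already come up as a large difference between the species, so its values in the fibrosarcoma comparisons are a description and carry no test. In Spalax it was 83.4 and 205 in fibrosarcomas 2230 and 2240 (UIS 8.53 and 12.1), a log2 fold change of 3.56 ± 0.64 (SE). In the mouse it was 10.3, 1.19 and 0.526 in tumors 1019, 1023 and 512 and 1125, 4243 and 64.8 on the uninjected side, -7.66 ± 1.59 on the log2 scale (SE). The 2 lowest tumor values rest on 2 reads and 1 read. The responses differed by 11.22 ± 2.23 on the log2 scale (SE), the Spalax response being the higher, in a comparison in which 4.55% of 12817 shared genes were called. In the granulomas Apoc1 was 11.6 and 30.8 in 600 and 976 and 1.21 and 0 on the uninjected side. These rest on 67 reads against 1, a ratio of 37.1 per unit of depth with an exact 95% counting interval of 6.43 to 1486, and the log2 fold change was 3.75 ± 0.98 (SE).

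In the mouse Apoc1 and genes of fat cells were both lower in the tumors than in muscle. Control muscle had 4531, 2504 and 2196 (M1, M2 and M5), above 2 of the 3 UIS libraries and all tumors. The summed level of the 8 adipocyte genes listed was 29976 to 74057 in control mice, 17916 to 57390 in UIS and 147 to 294 in the tumors. Ucp1, the uncoupling protein of brown fat, which, like Plin1 and Adipoq here, was picked out after its values were seen, was 45978, 24005 and 42398 in M1, M2 and M5, 13180, 2217 and 0 on the uninjected sides of 1019, 1023 and 512, and at most 2.07 in the tumors. UIS 512, lowest in Apoc1 among the 6 muscle libraries, was also the lowest in Ucp1 and in Plin1, the protein that coats fat droplets (107, against 1698 to 7474 in the other 5). Over the 6 mouse muscle libraries the correlation of Apoc1 with Plin1 was 0.94 on the log2 scale, with Apoe 0.93 and with Csf1r 0.80. All 6 share the tissue site, and 3 of them the tumor-bearing animals.

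In the Spalax fibrosarcomas, where Apoc1 was higher than in UIS muscle, 5 of the 7 adipocyte genes tested fell and none rose, against 19% of all genes called lower. UIS muscle alone admitted some of them to the test, Plin1 and Adipoq included, and those had to differ. The count is therefore a description. Adipoq, the fat cell hormone adiponectin, was 0.600 and 1.84 in fibrosarcomas 2230 and 2240 against 1346 and 616 on the uninjected side. Over the 12 Spalax muscle libraries the correlation of Apoc1 was 0.76 with Plin1, 0.81 with Adipoq and 0.88 with Apoe. Over all 16 Spalax libraries, which include the tumors, it was -0.24 with Plin1 and 0.79 with Cd68. Over all 9 mouse libraries the corresponding values were 0.99 and -0.65. The uninjected side of 2230 held 13000 of Ucp1, against at most 6.57 in the other 15 Spalax libraries, and its Apoc1 was 8.53. The part of fat tissue in the Apoc1 values of either species was not tested. In the mouse genome (GRCm38, GENCODE vM21) Apoc1 lies on chromosome 7, from 19689481 to 19692660, and Apoe close by from 19696109 to 19699188, both protein-coding genes on the minus strand with no exon shared with another gene. Apoe was higher in each mouse tumor than on its own uninjected side where Apoc1 was lower.

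**Figure D3:**
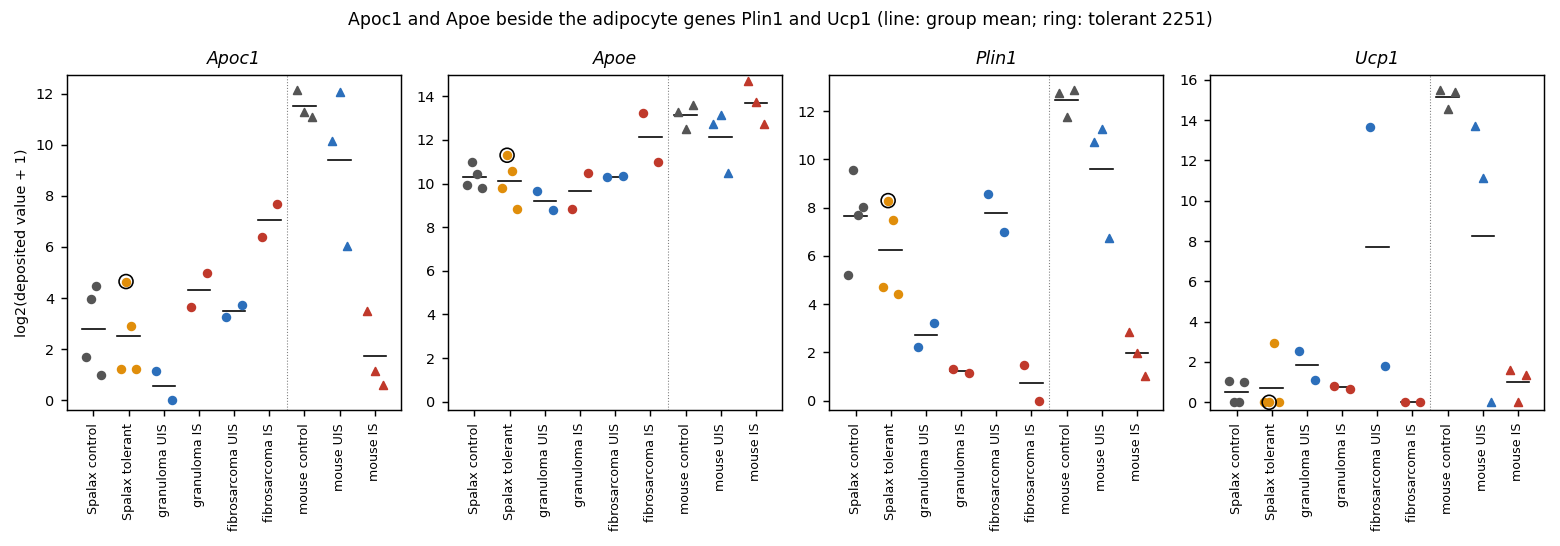
The panels give log2(deposited value + 1) of Apoc1, Apoe and the fat cell genes Plin1 and Ucp1 for the 9 groups on the horizontal axis, with circles for Spalax, triangles for mouse, lines for group means on this scale and a ring around tolerant 2251. In the mouse, Apoc1 and Plin1 are lower in each of the 3 tumors than in any muscle library, Ucp1 is at most 2.07 in the tumors and 0 in UIS 512, and Apoe is 6708 or more in the tumors. In Spalax, Plin1 is near 0 in the 4 tumors and Apoc1 is at 11.6 to 205.

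Tolerant Spalax were compared with controls and with tumors to ask how muscle of injected animals without a tumor differs from either. Against control, 0% of 14020 genes were called by limma and none of the 10, with 733 genes at an unadjusted p under 0.05, none of the 10 among them. edgeR called 0 genes and DESeq2 60, again without any of the 10. In 3 of the 4 tolerant libraries (2218, 2261 and 2375) the genes were at the level of control muscle, for example Cd68 at 111 ± 95.8, Csf1r at 715 ± 443, Gpnmb at 480 ± 183 and Trem2 at 3.44 ± 3.89 (SD, n = 3).

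The library of tolerant 2251, an injected male without a tumor at 18 months, did not follow this. Its Trem2 value was 706, against 2.64, 7.66 and 0 in 2218, 2261 and 2375 and 28.9 to 131 in the 4 tumors, so it was the highest of all 16 Spalax libraries. Gpnmb was 13050 against 529, 633 and 277, between the values of fibrosarcomas 2240 and 2230. Cd68 was 1476 (others 56.9, 221 and 53.6), Csf1r 4750 (others 707, 1163 and 276), Adgre1 212 (others 13.2, 15.3 and 1.34) and Mrc1 3880 (others 643, 1518 and 448). These 6 genes and, by smaller margins, Apoe (2517) and Apoc1 (24.0) made 8 of the 10 that lay above the other 11 muscle libraries, which held for 24.5% of 14578 genes.

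Arg1 and Cd163 were not raised in 2251 in this way. Arg1 was 18.0 in 2251, at the level of fibrosarcoma 2230 (21.6) and far under the other 3 tumors, and it was 0 in the other 3 tolerant libraries. Cd163 was 24.0, lower than in the other tolerant libraries (84.6, 88.7 and 69.7) and close to granuloma 600 (26.9) and fibrosarcoma 2230 (32.4). Spp1, the secreted glycoprotein osteopontin that lipid-associated macrophages are known to make, was 23083 in 2251, against 56.2 to 2185 in the 4 tumors and at most 151 in the other 11 muscle libraries. Mmp12, the macrophage elastase, named after its values were seen, was 1606 there and 32.4 to 226 in the tumors. Of the listed genes, 15 of 17 macrophage identity genes, 7 of 7 CSF1 and TREM2 signaling genes and 10 of 10 fibroblast genes in 2251 lay above the other 11 muscle libraries. So did 8 of 10 alternative activation genes, 8 of 13 classical activation genes, 18 of 31 lipid and lysosome genes, 6 of 10 lymphocyte genes and 3 of 6 dendritic cell genes. Fewer did so among melanocyte (1 of 6), neutrophil (1 of 7), adipocyte (1 of 8), endothelial (0 of 7) and arginine and polyamine genes (0 of 10). Of all 14578 genes 24.5% did. Of the 9 skeletal muscle genes none did, and their summed level of 863771 in 2251 was the lowest of the 12 although far above the tumors. Of the 6 proliferation genes 5 in 2251 lay above the other 11 muscle libraries, while their sum was 822 there, 251 to 1573 in those 11 and 5850 to 13687 in the tumors.

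Tumor IS and tolerant libraries were compared as groups of 4. Tolerant libraries alone would have passed 6 of the 10 genes, and of these Cd68 (3.52 ± 0.93, SE, adjusted p by limma = 0.0139) and Mrc1 (2.63 ± 0.79, SE, adjusted p = 0.0235) were called, both higher in the tumors, where 22.4% of 14578 genes were called higher and 24% lower. Arg1 (7.50 ± 1.44, SE) and Apoc1 (3.18 ± 1.04, SE) reached a value of 10 in all 4 tumors and only in 2251 among the tolerant, so their differences are a description. Only Arg1 was higher in every tumor than in every tolerant library, as were 19.2% of all genes. Over all 10 genes the fit called 4, and 8 without 2251, with Csf1r, Adgre1, Trem2 and Gpnmb added. Adgre1, Arg1, Apoc1 and Trem2 would not have passed the filter on the tolerant libraries alone. The share of all genes called without 2251 was not counted, so nothing is read from these totals. Trem2 had a log2 fold change of 2.57 ± 1.74 (SE), which was 4.52 without 2251 and -1.07 in edgeR. The mean of Trem2 was 81.9 in the tumors and 179 in the tolerant group. Scaling to total reads moved the median of all genes by 0.65 on the log2 scale in this comparison and the share of calls that were higher from 48.2% to 71.8%. The 2 groups differ in index type, which cannot be told apart from tumor status.

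Each gene was also set against Csf1r within the same library, as a description chosen after the values were seen, to show which genes varied apart from this general macrophage marker. Per 1000 of Csf1r, Trem2 was 149 in tolerant 2251, 21.6 to 42.7 in the 4 Spalax tumors and at most 13.9 in the other 11 Spalax muscle libraries. In the mouse it was 60.2, 103 and 147 in tumors 1019, 1023 and 512 8.84 to 29.8 in control muscle and 19.6 to 81.7 in UIS muscle, the highest of these being UIS 1019. Gpnmb was 2747 per 1000 of Csf1r in 2251 and 1009 to 4678 in the Spalax tumors, and at most 1191 in the other muscle.

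Cd163 per 1000 of Csf1r was lower in tumors than in control muscle. Per 1000 of Csf1r it was 91.5 to 132 in control Spalax and 5.06 in 2251, 16.8 and 14.6 in granulomas 600 and 976 and 5.63 and 51.2 in fibrosarcomas 2230 and 2240. The uninjected sides had 74.2, 15.2, 41.8 and 54.0 in 600, 976, 2230 and 2240, so that 976 and 2240 hardly differed between their sides. In mice it was 608 to 1396 in control muscle, 228, 957 and 843 on the uninjected sides of 1019, 1023 and 512 and 5.53, 50.7 and 137 in their tumors. Arg1 was 594 and 254 in granulomas 600 and 976 and 653 in fibrosarcoma 2240, 3.76 in fibrosarcoma 2230, 3.79 in 2251 and 2.44 to 54.6 in the mouse tumors. Apoe per 1000 of Csf1r was 286 and 307 in the granulomas and 530 in 2251, below every other Spalax library (1009 to 2192). With Tyrobp in place of Csf1r, Trem2 in 2251 was again the highest of the Spalax libraries (373 per 1000, against 31.4 to 62.8 in the tumors).

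**Figure D4:**
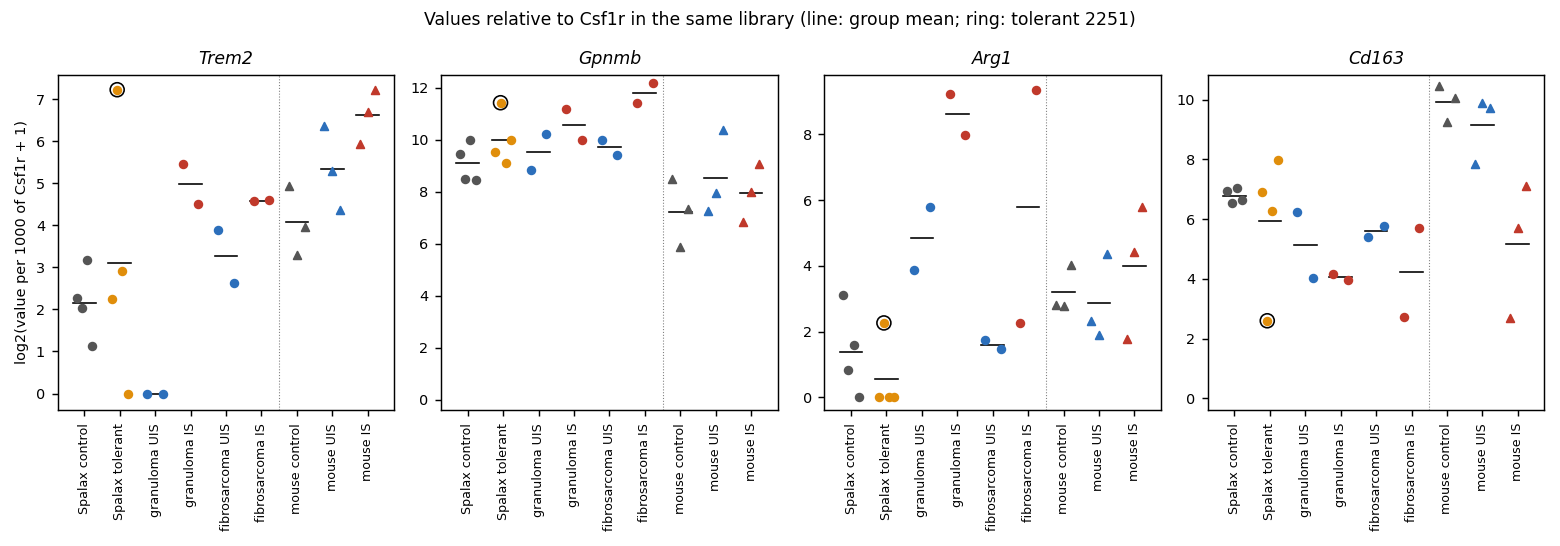
The panels show log2(value per 1000 of Csf1r + 1) of Trem2, Gpnmb, Arg1 and Cd163 for the 9 groups on the horizontal axis, with circles for Spalax, triangles for mouse, lines for group means on this scale and a ring around tolerant 2251. The ring is at 149 per 1000 for Trem2, above the other Spalax libraries, and at 5.06 for Cd163, below them. Arg1 is high in 3 Spalax tumors and at 3.76 in the remaining one.

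Fibrosarcomas and granulomas of Spalax were compared to ask which genes set malignant and benign growth apart. With 2 libraries against 2, 0% of 14562 genes were called by limma (591 at an unadjusted p under 0.05, edgeR 0, DESeq2 153) and none of the 10 by any of these tests. Arg1 was the gene with the largest difference, lower in both fibrosarcomas (21.6 and 816) than in both granulomas (951 and 1170), by a log2 difference of -2.96 ± 1.71 (SE). Cd68, Apoe, Apoc1 and Gpnmb were higher in both fibrosarcomas than in both granulomas. The share of all genes separated in either direction was not counted here, so nothing is read from these orders. Apoc1 was 83.4 and 205 against 11.6 and 30.8, higher by 2.72 ± 0.83 (SE) on the log2 scale, and Apoe 9741 and 2043 against 457 and 1413, higher by 2.47 ± 0.94 (SE). All 3 had a limma adjusted p that rounds to 1. The responses to the injection, IS against UIS, differed between fibrosarcomas and granulomas in 0% of 15584 genes by limma (766 at an unadjusted p under 0.05, edgeR 0, DESeq2 88). The response of Trem2 was lower in the fibrosarcomas by 3.14 on the log2 scale (± 1.27 SE) and was not called. The tumors alone admitted Trem2 to the test, so this is a description. No read of Trem2 was found in the granuloma UIS libraries, so this size depends on the added constant. Over the alternatives the difference ran from -6.25 to -2.91.

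The 2 Spalax fibrosarcomas differed widely from each other. Tumor 2230 exceeded tumor 2240 in Mrc1 (22442 and 2941), Csf1r (5747 and 1249), Apoe (9741 and 2043), Trem2 (131 and 28.9), Adgre1 (292 and 86.7) and Gpnmb (15470 and 5840). Tumor 2240 exceeded 2230 in Arg1 (816 and 21.6), Apoc1 (205 and 83.4) and Cd163 (63.9 and 32.4), and Cd68 was close (2736 and 2340). Vsig4, a complement receptor of tissue macrophages, was 2694 in 2230 and 87.3 in 2240, and Il1b, the inflammatory cytokine IL-1β, was 99.5 and 1100. They come from a male at 30 months and a female at 18 months, and with 1 animal each the difference has no replicate check.

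Other genes of the same cells were read from lists of markers. The filter on low values took both sides together, so some listed genes were admitted by the side where they are high. Counts and p-values of listed genes are therefore a description. Of the 20 macrophage identity genes, 17 were in the Spalax table. Among all genes tested, 11.7% were called higher in the granulomas, 17.4% in the Spalax fibrosarcomas and 22.8% in the mouse. Identity genes rose in 6 of 17 cases in granulomas, 13 of 17 in Spalax fibrosarcomas and 13 of 20 in the mouse. None of them was lower in any of the 3. Their median log2 fold changes were 2.95, 2.74 and 3.22, beside medians over all genes of -0.01, 0.03 and 0.11. Named by size were Msr1, a scavenger receptor (4.86 ± 0.71, SE, in the granulomas, limma, adjusted p = 0.0130), Itgam, the integrin CD11b (3.66 ± 0.54, SE, in the Spalax fibrosarcomas, limma, adjusted p = 0.0116), and Ctss, the lysosomal protease cathepsin S (4.35 ± 1.14, SE, in the mouse, limma, adjusted p = 0.0222).

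The CSF1 and TREM2 signaling list held 13 genes, of which 7 were in the Spalax table. In the granulomas 2 of 7 tested rose, in the Spalax fibrosarcomas 3 of 6 and in the mouse 8 of 13, with none lower. The shares of all genes called higher were 11.7%, 17.4% and 22.8%. Vav1, an exchange factor of blood cells, rose by 3.42 ± 0.74, 3.80 ± 0.33 and 3.47 ± 0.93 on the log2 scale (SE, adjusted p by limma = 0.0301, 0.00454 and 0.0240) in granulomas, Spalax fibrosarcomas and mouse.

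Lipid and lysosome genes changed in both directions. Of the 29 tested in each Spalax tumor type, 9 rose and 5 fell in the granulomas and 11 rose and 2 fell in the fibrosarcomas. In the mouse 11 rose and 8 fell of 31. Over all genes 11.7%, 17.4% and 22.8% were called higher and 12.6%, 19% and 22.3% lower. The share of these genes that fell in the mouse was near that of all genes. Soat1, which esterifies cholesterol for storage, rose by 3.85 ± 0.43 in the Spalax fibrosarcomas (SE, adjusted p by limma = 0.00682). Fabp4 and Cd36, a fatty acid binding protein and a fatty acid transporter that fat and muscle also express, were among those that fell, Fabp4 with log2 fold changes of -3.98 in the granulomas and -5.60 in the Spalax fibrosarcomas (adjusted p = 0.0213 and 0.0262 in limma). In the mouse Lpl, the lipase of fat and muscle capillaries, fell by 7.30 (adjusted p = 0.00139 in limma) and Spp1 rose by 6.38 ± 1.33 (SE, adjusted p by limma = 0.0106).

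Alternative activation genes rose in 4 of 7 tested cases in the granulomas and 4 of 9 in the Spalax fibrosarcomas with none lower. In the mouse 4 of 14 rose and Retnla fell. Among all genes 11.7%, 17.4% and 22.8% were called higher in the 3 comparisons, so the mouse count was near the share of all genes. Hmox1, the haem-degrading enzyme, rose in both Spalax tumor types (2.57 ± 0.58 and 3.02 ± 0.23, SE, adjusted p by limma = 0.0332 and 0.00374). Retnla, a secreted protein of resident and IL-4-treated mouse macrophages, fell in the mouse tumors by 6.59, from 391, 230 and 104 to 0.517, 5.93 and 0. Muscle alone admitted Retnla to the test, so no p-value is given. Il10, the anti-inflammatory cytokine, rose in the Spalax fibrosarcomas (4.61 ± 0.98, SE) and in the mouse (4.07 ± 0.63, SE), given as a description.

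Classical activation genes rose in 3 of 11 cases in the granulomas, 7 of 11 in the Spalax fibrosarcomas and 9 of 16 in the mouse, with none lower. Beside these stand 11.7%, 17.4% and 22.8% of all genes called higher. Ptgs2, a prostaglandin synthase, had the largest change of those called in the granulomas (5.61 ± 1.03, SE, adjusted p by limma = 0.0206) and in the mouse (6.08 ± 1.47, SE, adjusted p by limma = 0.0171). Cxcl10, an interferon-induced chemokine, had the largest in the Spalax fibrosarcomas (6.36 ± 0.90, SE, adjusted p by limma = 0.0108).

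Genes of arginine and polyamine metabolism, the pathway of Arg1, moved both ways, and Ass1 moved in opposite directions in the 2 species. Ass1, argininosuccinate synthase, makes the precursor of arginine. In the Spalax fibrosarcomas Ass1 was 3.60 and 6.76 in 2230 and 2240 against 179 and 149 on the uninjected side. Its log2 fold change was -4.78 (± 0.53 SE), without a p-value since muscle alone admitted it to the test there. In the mouse it was 994, 2526 and 433 in tumors 1019, 1023 and 512 against 238, 315 and 173, higher by 2.13 ± 0.64 (SE, adjusted p by limma = 0.0348). The responses differed by -6.91 ± 0.96 on the log2 scale (SE, adjusted p by limma = 0.0108). Slc7a1, the main arginine importer, rose in the fibrosarcomas of Spalax (2.55 ± 0.63, SE, adjusted p by limma = 0.0385) and of the mouse (2.27 ± 0.45, SE, adjusted p by limma = 0.00913), and Oat, which converts ornithine, fell in all 3 tumor types, with -2.52, -2.41 and -2.31 in granulomas, Spalax fibrosarcomas and mouse (limma, adjusted p = 0.0297, 0.00561 and 0.00423). In the granulomas Ass1 was 30.5 and 4.83 against 66.3 and 186 and was not called (limma, adjusted p = 0.0965).

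Markers of other cell types differed between the libraries as well. The summed neutrophil markers (7 of 10 in the Spalax table) were 1786 to 9782 in the 4 Spalax tumors, 4205 in tolerant 2251 and 81.8 to 3297 in the other Spalax muscle libraries. In 2251 only Mmp9 (3808), a protease that macrophages also make and named after its value was seen, lay above the other 11 muscle libraries, and 1 of the 7 lay below them. In the mouse the 10 neutrophil markers summed to 780 to 3488 in the tumors and to 17907 in UIS 1023, against 106 to 482 in the other 5 muscle libraries. The 10 fibroblast markers summed to 124904 to 2107280.4 in the Spalax tumors and 224137 in 2251, and to 8462 to 48638 in the other Spalax muscle. Mouse UIS 1019 stood out among muscle in proliferation genes (1387, against 28.8 to 106 in the other 5) and had the highest Cd68, Trem2 and Adgre1 of the UIS libraries. The part of these cells in the values of the 10 genes was not tested.

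Finally, the genes whose pattern across the 16 Spalax libraries was most like 3 of the members were listed among 12602 genes with a mean of at least 10. These correlations are a description over libraries of which 4 are tumors and which share size factors. Closest to Csf1r were Fes, Ptpn6, Ctsk, Fcgr2a and Alox5 (Pearson r = 0.98, 0.97, 0.97, 0.97 and 0.97), and over the 9 mouse libraries the values for Fes, Ptpn6, Ctsk and Alox5 were 0.84, 0.90, 0.92 and 0.37. Closest to Gpnmb were Ctsb, Slc29a3, Arrb2, Sdc1 and Prkcd (0.97, 0.96, 0.96, 0.95 and 0.95), with 0.47, 0.86, 0.76, 0.89 and 0.88 in the mouse. Closest to Apoc1 were Mgst1, Gusb, Psmb9, Epsti1 and Tmem123 (0.91, 0.91, 0.90, 0.90 and 0.90). In the mouse Mgst1 kept a value of 0.96 with Apoc1, while the other 4 had -0.51, -0.45, -0.57 and -0.33.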

How the data were processed

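Strand-specific single-end RNA-seq libraries of the authors were trimmed with Trimmomatic, aligned with TopHat2 and counted with htseq-count. The submitters' processing notes name TopHat 1.4.1, HTSeq, DESeq and GRCm38. The deposited signal per gene is the authors' read count divided by 1 size factor per library. In all libraries 100% of values were whole multiples of the value of 1 read (tolerance 0.01 read), so reads were recovered by division. Among the Spalax gene names, 2387 hold a comma where a letter t is missing, which was restored. Genes were matched by symbol (14770 shared).

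The members and lists were chosen with earlier results of these data known. The main test was limma 3.58.1 (R 4.3.3, trend) on log2(value + 1), over genes that reached 10 in a number of libraries equal to the size of the smaller group, with Benjamini-Hochberg adjustment over all genes. Fold changes on this scale understate low genes. edgeR 4.0.16 and DESeq2 1.42.0 on recovered reads, total-read scaling, a pseudocount of 0.1, no filter, a model over all libraries of a species, an animal block and leaving out each library were alternatives. Besides the 10 members, up to 4 called genes of each macrophage or pathway list with the largest change were named. Some of these are not reported here. Counts over genes that the lower group alone would have passed were added after seeing the data.

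IS and UIS libraries of an animal carry the same number in the labels, which pairs them. Their deviations from the group means correlated at 0.00925 (granuloma), -0.00186 (Spalax fibrosarcoma) and 0.125, 0.0469 and 0.178 (mouse 1019, 1023 and 512). No replicate pair was a copy (chi-square per degree of freedom at least 45.0 over 25 pairs). Intervals cover counting error only, since reads carry no molecular identifiers. The tests ran on simulated data first.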

Additional observations from a re-analysis of the deposited data

Results flagged for a closer look

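Among the 4 tolerant Spalax, library 2251 was marked as high for 5 of the 10 genes by Dixon's criterion for 4 values. These were Trem2 (706), Gpnmb (13050), Adgre1 (212), Cd68 (1476) and Arg1 (18.0). For Arg1 the other 3 values were 0, so any value above 0 in 2251 would have met the criterion. The criterion is met by chance in about 1 group in 20, and over 14020 genes it marked 8.44% in this group, 4.48% with 2251 as the highest. These are the genes that passed the filter for tolerant against control. Trem2, Arg1 and Apoc1 did not pass it, so the shares do not cover them. Among the 4 controls the criterion marked 1 of the 10 genes, Cd68, which was lowest in 1042 (57.4), and 7.39% of the 14020 genes. For Apoc1 the response to the tumor differed between Spalax and mouse fibrosarcomas by 11.22 on the log2 scale as the difference of the fitted changes. This gene had been chosen knowing that difference, so the value is a description with no test.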

How the results depend on the processing

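Of the 10 genes, the number called in UIS or tolerant against control, in mouse UIS against control and in both comparisons of fibrosarcoma with granuloma was 0 under every alternative run. Leaving out a library gave 2 to 8 called genes in tumor IS against tolerant, 0 to 5 in the granulomas, 0 to 9 in the Spalax fibrosarcomas, 3 to 8 in the mouse and 0 to 1 in the difference between species. With a group of 1 library the fit assumes that it varies like the others. In the Spalax fibrosarcomas scaling by total reads gave 8 and DESeq2 9 in place of 4, in the mouse edgeR gave 4 in place of 7, and the animal block gave 0 in place of 1 for the difference between species. In the granulomas 0 were called without IS 600 or IS 976 and 4 without UIS 976. In the Spalax fibrosarcomas 0 were called without UIS 2230 or UIS 2240 and 9 without IS 2230 or IS 2240. In the mouse 3 were called without IS 1019, IS 1023 or UIS 1023 and 4 without UIS 512. For the difference between species 0 were called without Spalax IS 2230, UIS 2230 or UIS 2240 or mouse IS 1023, IS 512 or UIS 1023. Tumor IS against tolerant gave 2 without fibrosarcoma IS 2230, granuloma IS 976, tolerant 2218 or tolerant 2375 and 8 without 2251. Signs changed for Cd163 with total-read scaling (0.21 in tumor IS against tolerant and 0.12 in the mouse) and without granuloma UIS 976 (-0.46 in the granulomas, range -0.46 to 2.66 over the left-out libraries), for Apoe without granuloma IS 976 (range -0.37 to 1.25 in the granulomas) and without fibrosarcoma IS 2230 (range -0.020 to 1.45 in tumor IS against tolerant), and for Trem2 in tumor IS against tolerant with edgeR (-1.07) and DESeq2 (-1.10). The cause was not tested. The counts of called members cover all 10 genes, including those admitted to the test by the tumor libraries. The share of all genes called with a library left out was not counted, so nothing is read from the member counts of those reruns. Over all alternatives for single genes, 465 values kept their side of the threshold, 42 passed it newly, 71 lost it and 7 changed sign. The animal block changed the call of Apoc1 (granulomas and species difference), Arg1 and Trem2 (Spalax fibrosarcomas) and Mrc1 and Apoe (mouse), and of no other member. Depth limits Trem2, Arg1 and Apoc1 outside the tumors, where values rest on few reads.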
